A study of Mus musculus with 6 samples.

Results

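Noncycling alveolar macrophages were taken here as the cells of mouse lung in which 4 or more of 11 identity genes were detected (Kcnip4, Htr2c, Plet1, Atp6v0d2, Egfem1, Lepr, Slc7a2, Mertk, Fabp1, Siglecf and Marco). They also had at most 1 UMI (unique molecular identifier, 1 tagged RNA molecule) summed over the cell cycle genes Mki67, Top2a and Birc5, and at most 1 over the lymphocyte genes Cd79a, Cd3e and Ncr1. The rule found 9453 members among 71634 kept cells (13.2%), where a kept cell had 500 or more UMIs, 200 or more genes and under 10% mitochondrial UMIs. Because the members were selected on measured values of these 17 genes, their levels are given below as description and support nothing.

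Immune cells of perfused, enzyme-digested lungs were isolated with magnetic beads against CD45, a surface protein of blood-derived cells, and sequenced as 3′ single-cell libraries (10x Genomics v3.1). There were 3 libraries of normal lung and 3 of lung infiltrated by acute myeloid leukemia (AML), called normal 1 to 3 and AML 1 to 3. The labels give no leukaemia model, strain, age or sex and do not say whether the libraries of a group came from separate animals, and every p-value below rests on the spread between libraries alone, which may be technical.

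Alveolar macrophages live in the airspaces, where they take up surfactant lipid, inhaled particles and dying cells. They are settled early in life by fetal precursors and depend on GM-CSF and TGF-beta, which act through the lipid-sensing receptor PPARgamma and factors such as PU.1 and C/EBPalpha. They maintain themselves largely by local division, with some replacement from blood monocytes when the lung is injured.

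The libraries differed in depth, and AML 3 stood apart. The members held 3265098 to 21621935 UMIs per library. Median UMIs per member were 25306.5, 13588 and 4897.5 in normal 1 to 3, and 17548, 5756.5 and 1493 in AML 1 to 3. The medians of both groups ran from deep to shallow and overlapped (exact two-sided permutation test, n = 3 and 3, p = 0.6), with AML 3 the shallowest library. The median mitochondrial percent of members lay between 1.97 (AML 3) and 2.93 (AML 2). A barcode sequence found in more than 1 library was carried by 128 members, of which 20 shared it with another member.

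Markers outside the rule bore out the label. Each cell was thinned to 1000 UMIs, and the rule was applied anew to the thinned counts. Members at 1000 UMIs, or thinned members, are the cells that met it there and not a subset of the members above. Cells with more cell cycle UMIs at full depth can be among them. Such cycling cells fell from 152 to 18 in normal 1 and from 49 to 14 in AML 1. Chil3 encodes a secreted chitinase-like protein made in quantity by alveolar macrophages. It had a UMI in 95.7% or more of thinned members in each of the 6 libraries. In lymphocytes of the same libraries (2 or more UMIs over Cd79a, Cd3e and Ncr1, no identity gene, median depths of 1381 to 7284 UMIs), the share for Chil3 was 1.03% to 3.49% in 5 libraries and 11.7% in AML 3. Lpl, lipoprotein lipase, had a UMI in 56.4% to 90.3% of thinned members, Pparg in 44.3% to 65.5% and Ear2, a ribonuclease of these cells, in 45.8% to 57.5%. Lymphocytes of AML 3 had a UMI of Pparg in 17.2% of cells and of Ear2 in 4.36%, against at most 2.69% and 0.917% in the other libraries. Without thinning the median member had 10, 10 and 8 of the 11 identity genes in normal lung and 10, 8 and 6 in AML lung. Among the rule's own genes, Kcnip4 was the most widely detected at 1000 UMIs (90.8% to 95.9% of members) and Siglecf the least (8.90% to 14.2%).

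Cells at the edge of the rule were few in the deep libraries and many in AML 3. Exactly 4 identity genes were found in 12, 30 and 174 members of normal lung and in 1, 71 and 1244 of AML lung. Just outside, 21, 52 and 185 cells of normal lung and 5, 75 and 1004 of AML lung had 3. Chil3 was detected in 88.7% or more of the cells with 4 and in 57.1% to 93.4% of those with 3, leaving out AML 1 with its 1 and 5 cells.

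Members of AML 3 carried more UMIs of other cell types' marker genes than those of the other libraries. Each member at 1000 UMIs was scored for UMIs over marker genes of neutrophils and their granule precursors, classical and nonclassical monocytes, and B, T and NK cells. Mgst1, Fn1, Nr4a1, Hp and Pglyrp1 were left out of the score. Itgal, kept as a monocyte marker, had 174.7 to 269.3 CPM in members of all libraries. Whether UMIs of the scored genes came from other cells was not tested. No such UMI was found in 64.0%, 61.6% and 49.3% of members of normal 1 to 3, in 65.2% of AML 1, 52.2% of AML 2 and 20.6% of AML 3. In AML 3, 19.5% of members had 10 or more, against 0.405% to 4.32% in the other 5 libraries. Summed neutrophil markers reached 4882 CPM (counts scaled to the total of each library's members) in the members of AML 3 and 249 to 809 CPM in the other libraries.

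**Figure D1:**
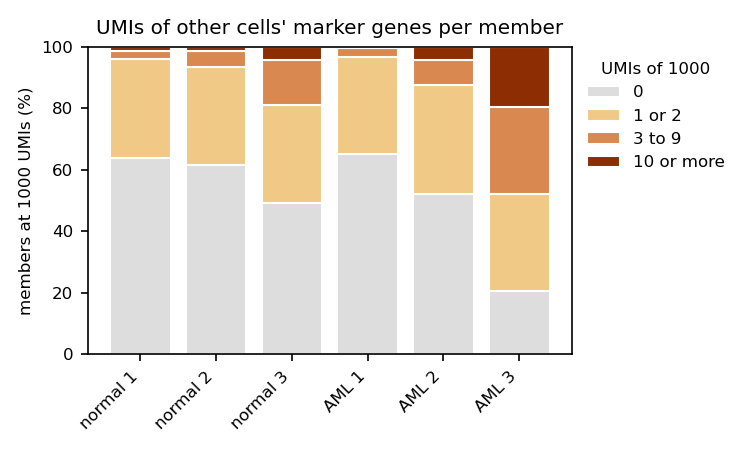
Percent of members (y axis, cells thinned to 1000 UMIs) with 0, 1 or 2, 3 to 9, and 10 or more UMIs over the markers of other leukocytes, in each library (x axis). AML 1 resembles normal 1 and normal 2, and 19.5% of the members of AML 3 have 10 or more.

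Genes of red cells separated AML 3 in the same way. Summed haemoglobin and other erythroid markers gave 657 CPM in its members, 80.4% of their level in the cells of that library outside the alveolar macrophages. In normal 2 and normal 3, whose other cells also held these transcripts, the members had 0.329% and 1.14% of the level of the rest. Doublet calls by Scrublet covered 4.61% of the members of AML 3 and 3.24% to 9.96% in the other libraries. The defining transcripts of C1q-positive interstitial macrophages were low, but not alike in all libraries. Of these, C1qb had 0.879, 0.684 and 0.887 CPM in members of normal lung and 0.225, 9.80 and 4.10 CPM in those of AML lung, against 9.998 to 42.5 CPM in the cells outside the alveolar macrophages. Results below are therefore also given without AML 3, or in members thinned to 1000 UMIs that had no UMI of the scored marker genes. The latter are called free of other leukocytes' UMIs below. That name covers only the scored genes in the 1000 UMIs drawn per cell. Markers of dendritic cells, interstitial macrophages and red cells were not scored, and UMIs of other cells may remain in this set. That restricted set held 568, 644 and 570 members of normal lung and 161, 192 and 594 of AML lung, so its values rest on far fewer UMIs.

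Members made up a smaller part of the kept cells in AML lung in every library. They were 24.8% of normal 1 (878 of 3538 cells), 20.01% of normal 2 (1102 of 5507) and 15.5% of normal 3 (1522 of 9848). They were 5.44% of AML 1 (247 of 4538), 3.87% of AML 2 (502 of 12974) and 14.8% of AML 3 (5202 of 35229). The exact 95% binomial intervals, which cover counting error only, were 14.7% to 16.2% in normal 3 and 14.4% to 15.1% in AML 3. The intervals of these 2 libraries overlapped. The mean share was 20.1% ± 4.69 (SD, n = 3) in normal and 8.03% ± 5.89 (n = 3) in AML lung. An exact two-sided permutation test gave p = 0.1, the smallest value that 3 against 3 libraries allow.

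The order of the libraries depended little on depth, but the separation of the groups did. In cells thinned to 1000 UMIs the shares were 25.5%, 19.7% and 15.03% in normal lung and 5.46%, 3.24% and 15.1% in AML lung, so AML 3 lay inside the range of normal lung (exact permutation p = 0.2). A share also moves with the other cells: nonclassical monocytes, by marker rule, were 10.0% to 15.1% of kept cells in normal lung and 51.5%, 40.0% and 11.8% in AML 1 to 3. With those monocytes left out of the total, members were 28.8%, 23.6% and 17.2% in normal lung and 11.2%, 6.45% and 16.8% in AML lung.

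**Figure D2:**
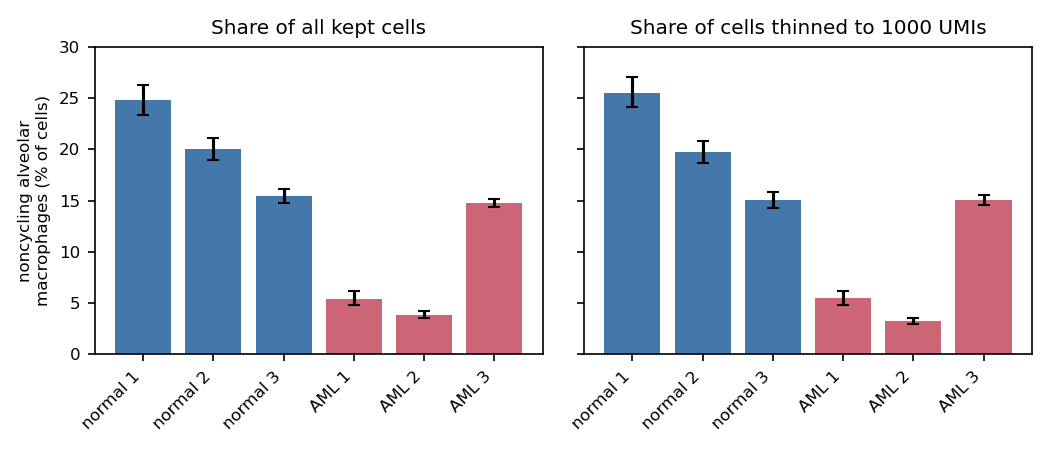
Noncycling alveolar macrophages as a percent of kept cells (left) and of cells thinned to 1000 UMIs (right), with exact 95% binomial intervals, for each library. AML 1 and AML 2 sit at 3.24% to 5.46% in both panels, and AML 3 sits beside normal 3.

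Cycling alveolar macrophages, the cells that met the identity and lymphocyte parts of the rule but had 2 or more UMIs over Mki67, Top2a and Birc5, mark the rule's other edge. They were 14.8%, 10.3% and 6.63% of alveolar macrophages in normal lung and 16.6%, 3.65% and 3.45% in AML lung. At 1000 UMIs the percentages were 1.99, 2.15 and 2.77 in normal lung and 5.36, 0.541 and 2.001 in AML lung, with 14, 2 and 59 cycling cells behind the last 3. The groups overlapped on both scales (exact permutation p = 0.6 and 0.9).

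Within the members, UMIs were summed per library and AML was compared with normal lung over 12111 genes by edgeR's quasi-likelihood test. No gene passed an adjusted p of 0.05 in either direction (0% of genes), and the lowest adjusted p was 0.303. At an unadjusted p under 0.05 there were 1365 genes (11.3%), and DESeq2 called 87 genes higher (0.718%) and 83 lower (0.685%). Without any test, the 3 AML libraries lay above the 3 normal libraries for 952 genes (7.86%) and below them for 1216 (10.0%). Differences below are therefore given as values, with edgeR's log2 change and standard error, and no single gene is called changed by that test. The shares of 7.86% and 10.0% hold for all members and all libraries. They were not counted in the thinned or restricted sets or without AML 3, so list counts there stand without such a share. The highest mean levels, Malat1, Tmsb4x, Actb and Fth1, overlapped between the groups; Actb, for instance, lay at 8163 to 10060 CPM in normal and 9335 to 10520 CPM in AML lung.

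Genes that define the resident macrophage tended to be lower in AML lung. Of 30 identity genes outside the rule, 28 were measured, with a median log2 change of -0.37 against 0.00 over all genes tested. For 13 of the 28 all AML libraries lay below all normal libraries, where 10.0% of all genes did so, and none lay above; DESeq2 called 7 lower. The list holds genes picked with results of these libraries known, so its direction is no independent evidence. Without AML 3 the median was -0.34 and 15 were lower without overlap, 2 higher. With fewer libraries groups separate more easily, so these counts cannot be set beside those of all libraries. In members thinned to 1000 UMIs that had no UMI of other leukocytes' markers, the median was -0.08, and 4 of 26 measured genes were lower and 1 higher without overlap, against 10 lower of 27 in all thinned members.

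Krt19, a keratin carried by mature alveolar macrophages, had 234.9, 252.9 and 242.2 CPM in normal lung and 179.3, 137.8 and 155.2 CPM in AML lung. Its log2 change was -0.63 ± 0.12 (SE), adjusted p = 0.393 by edgeR and 0.00072 by DESeq2. The groups did not overlap, and each AML library lay below the lowest normal one. Car4, a membrane carbonic anhydrase, had 311.0, 357.8 and 392.8 CPM against 224.6, 109.9 and 178.2 CPM (log2 change -1.05 ± 0.25). It was lowest in AML 2 and lower in all 3 AML libraries. In members free of other leukocytes' UMIs the log2 change of Krt19 was -0.46 and of Car4 -0.73, and for both the groups then overlapped.

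Other genes of the identity list followed with smaller or less even differences. Chil3 had 8374, 7181 and 6257 CPM in normal lung and 5941, 5472 and 4478 CPM in AML lung, a log2 change of -0.46 ± 0.17 that shrank to -0.20 in members free of other leukocytes' UMIs. Fabp5, a fatty acid carrier, had 455.7, 495.2 and 533.8 CPM against 372.9, 322.0 and 302.9 CPM (log2 change -0.57 ± 0.12). Krt79 had 338.8, 387.0 and 313.7 CPM against 249.8, 215.5 and 250.9 CPM, and Slc39a2, a zinc transporter, 54.3, 50.6 and 44.4 CPM against 23.7, 15.04 and 28.3 CPM. For all 4 every AML library was below every normal one. In the members free of other leukocytes' UMIs, Krt79 moved to a log2 change of -0.10 and Slc39a2 to -0.36, and for both the groups overlapped. Chil3 and Fabp5 (-0.36) still did not overlap there.

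Not every marker of the resident cell was lower. Ear2 had 942.9, 895.3 and 981.2 CPM in normal lung and 1146, 1050 and 648.3 CPM in AML lung, above normal in AML 1 and AML 2 and below in AML 3. Fabp4, the fatty acid carrier known as a PPARgamma target, had 204.5, 243.2 and 236.5 CPM against 198.9, 298.7 and 181.4 CPM. Pparg itself had 934.2, 1253 and 1480 CPM against 1139, 674.7 and 1230 CPM. For all 3 the groups overlapped, as they did for Ear1, with 372.8 to 400.8 CPM in normal lung and 493.3, 586.9 and 284.0 CPM in AML lung. Lpl and Cidec, a lipid droplet protein, were lower without overlap but overlapped in thinned members, with or without other leukocytes' UMIs, Cidec with 225.7, 227.1 and 243.5 CPM against 196.8, 162.7 and 150.9 CPM.

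Promoter sequences of the 13 identity genes that were lower without overlap were read from RefSeq (GRCm38.p6, 250 bases before to 50 after the start); 9 of the 13 had an entry. They were searched on both strands for GAGGAAG, a motif of the PU.1 kind, for TTGCNNAA, of the C/EBP kind, and for the E-box CACGTG. Ctsk and Mrc1 are shown because they were the 2 of 9 that held GAGGAAG, found in 13.5% of all 27025 promoters of 300 bases. Ctsk, which encodes the protease cathepsin K, also held TTGCNNAA, found in 10.8% of promoters; CACGTG, found in 7.24%, was in none of the 9. Capitals mark the motifs, which are matches of letters and not shown to be bound. Mrc1 lies on chr2:14229164-14229463 (plus strand) and Ctsk on chr3:95498960-95499259 (plus strand).
Mrc1: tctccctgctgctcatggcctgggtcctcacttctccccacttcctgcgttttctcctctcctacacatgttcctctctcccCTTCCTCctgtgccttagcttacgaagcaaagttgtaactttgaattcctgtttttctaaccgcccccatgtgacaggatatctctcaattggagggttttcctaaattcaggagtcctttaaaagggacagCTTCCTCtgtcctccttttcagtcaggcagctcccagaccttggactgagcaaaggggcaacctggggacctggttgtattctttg
Ctsk: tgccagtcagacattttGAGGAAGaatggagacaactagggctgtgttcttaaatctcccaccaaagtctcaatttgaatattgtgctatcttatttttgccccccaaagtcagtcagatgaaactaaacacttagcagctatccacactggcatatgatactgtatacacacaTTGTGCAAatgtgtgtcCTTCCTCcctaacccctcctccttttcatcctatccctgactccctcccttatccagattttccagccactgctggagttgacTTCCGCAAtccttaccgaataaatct

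Mrc1, the mannose receptor, had 2481, 2827 and 2989 CPM in normal lung and 2205, 1289 and 1852 CPM in AML lung. Ctsk had 183.4, 235.0 and 171.0 CPM against 141.8, 159.0 and 133.6 CPM. In both the AML libraries lay below the normal ones, but in members free of other leukocytes' UMIs the groups overlapped for Mrc1 (log2 change -0.40) and for Ctsk (-0.24).

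Without overlap, 10.0% of all genes were lower and 7.86% higher in AML lung. Among 27 measured genes of alveolar macrophage development and upkeep, 6 were lower and 2 higher without overlap, and the median log2 change was -0.03. Cebpa, which encodes the myeloid factor C/EBPalpha, was the most even of them, with 166.9, 172.8 and 168.0 CPM in normal lung and 109.4, 84.1 and 93.5 CPM in AML lung. Its log2 change was -0.82 ± 0.11, with an adjusted p of 0.393 by edgeR and 2.6e-07 by DESeq2. The normal libraries differed by little and every AML library lay well below them. At 1000 UMIs Cebpa had a UMI in 15.1%, 14.2% and 14.95% of members of normal lung and 8.91%, 7.88% and 9.45% of AML lung. In the restricted set of members the log2 change was -0.52 and the groups still did not overlap, with 155.3 to 196.7 CPM in normal and 99.8 to 141.4 CPM in AML lung. Rxra, the partner of PPARgamma and LXR receptors, had 108.7, 103.2 and 112.1 CPM against 84.4, 73.4 and 74.6 CPM. Its groups overlapped in members free of other leukocytes' UMIs, where the log2 change was -0.16.

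Lipid handling genes leaned lower. Of 34 measured, 13 were lower without overlap and none higher, where 10.0% of all genes were lower and 7.86% higher. The list's median log2 change was -0.20. In all thinned members 5 of 31 were lower and none higher without overlap, and in those free of other leukocytes' UMIs 5 of 28 were lower and 1 higher, with a median of -0.07. Abca1, which exports cholesterol from the cell, had 217.8, 177.3 and 197.8 CPM in normal lung and 133.6, 79.2 and 125.8 CPM in AML lung (log2 change -0.80 ± 0.20). Nr1h3, the oxysterol receptor LXRalpha that drives Abca1, had 36.5, 38.7 and 35.3 CPM against 24.6, 19.0 and 28.2 CPM. Scd2, a fatty acid desaturase, had 51.7, 46.9 and 50.6 CPM against 32.1, 39.6 and 33.1 CPM. The 3 genes were lower in each AML library. In members free of other leukocytes' UMIs Abca1 had a log2 change of -0.91 without overlap, while Nr1h3 (-0.44) and Scd2 (-0.40) overlapped between the groups, as they did in all thinned members. Dgat1, which makes triglyceride, went the other way, with 47.1, 52.0 and 58.7 CPM against 102.8, 117.6 and 87.7 CPM (log2 change 0.96 ± 0.14).

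Of 25 genes of cholesterol synthesis and uptake 3 were higher without overlap and 1 lower, near the shares of all genes (7.86% and 10.0%), and the median log2 change was 0.19. Insig1, which holds that pathway back, had 34.4, 39.1 and 36.6 CPM in normal lung and 42.1, 89.0 and 56.2 CPM in AML lung. Hmgcs1, an enzyme early in the pathway, had 65.6, 77.9 and 79.1 CPM against 93.5, 120.6 and 85.2 CPM. Both were highest in AML 2, and for both every AML library lay above every normal one. In the restricted set of members Insig1 still did not overlap (log2 change 0.79), and Hmgcs1 overlapped there and in all thinned members.

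Lysosomal genes were lower for 15 of 37 without overlap and higher for 1, where 10.0% of all genes were lower and 7.86% higher. Their median log2 change was -0.19. Gpnmb, a glycoprotein of lipid-laden macrophages, had 230.3, 214.2 and 182.4 CPM in normal lung and 85.8, 91.2 and 129.9 CPM in AML lung (log2 change -1.02 ± 0.18). In all thinned members it was lowest in AML 2, with 61.7, 39.1 and 157.6 CPM in AML 1 to 3. Grn, which encodes progranulin, had 419.1, 355.4 and 367.1 CPM against 279.0, 251.7 and 218.6 CPM. The proteases and hydrolases Ctsa and Gusb were lower in every AML library, Gusb with 171.6, 174.7 and 163.3 CPM against 134.0, 109.3 and 126.2 CPM. In all thinned members 8 of the 37 were lower without overlap, with a median of -0.09. In members free of other leukocytes' UMIs 13 of the 37 were lower without overlap and none higher, Gpnmb and Grn among them (log2 changes -0.75 and -0.57).

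**Figure D3:**
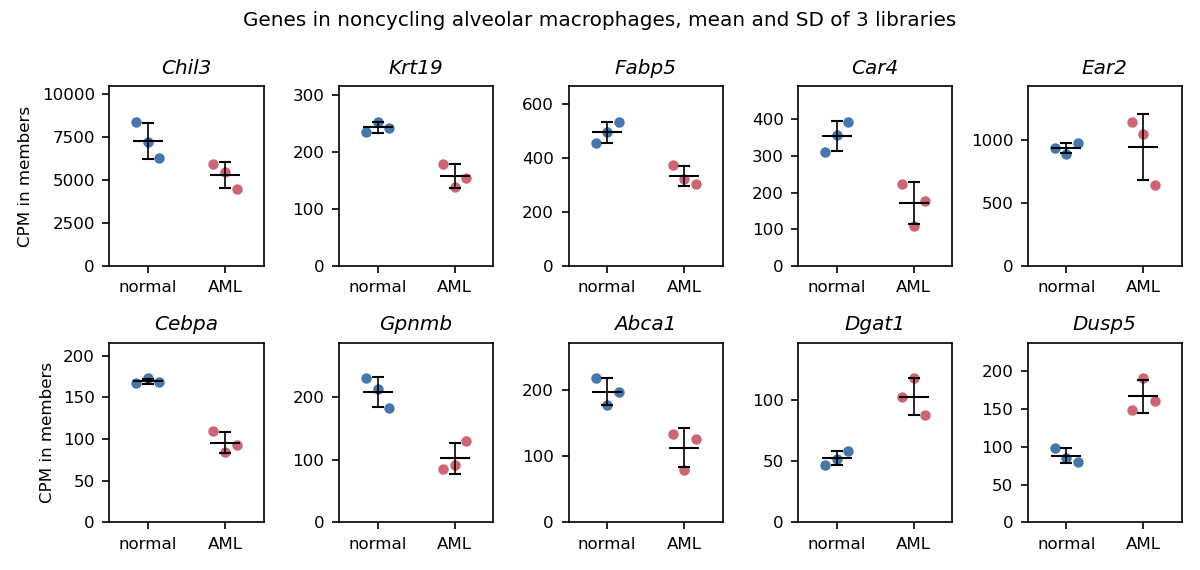
CPM summed over members (y axis, from 0) of 10 genes in normal and AML lung; points are libraries, the line and bars are mean ± SD (n = 3 and 3). Cebpa lies at 166.9 to 172.8 in normal and 84.1 to 109.4 in AML lung, while Ear2 overlaps between the groups.

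The lowest p-values belonged to a mixed set of genes. Cav2, which encodes caveolin-2, had 56.5, 52.3 and 52.3 CPM in normal lung and 27.3, 30.7 and 24.4 CPM in AML lung (log2 change -0.98 ± 0.12, adjusted p = 0.303 by edgeR). Also lower in every AML library were Pros1, a protein that bridges dying cells to Mertk (225.8, 219.1 and 214.0 against 162.7, 152.3 and 143.7 CPM), Hk2, a hexokinase (52.0, 44.96 and 47.5 against 30.9, 32.9 and 33.5 CPM), Abl2, Car5b, Stk35 and Fam102b. In the restricted set of members Pros1 (log2 change -0.41) still did not overlap. The groups overlapped there for Cav2 (-0.78), Car5b (-0.61), Hk2 (-0.61), Fam102b (-0.51), Stk35 (-0.21) and Abl2 (-0.18), and Hk2 had -0.08 in all thinned members.

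Higher in every AML library were Dusp5, a phosphatase that switches off ERK kinases (98.7, 85.6 and 79.6 against 148.6, 190.0 and 160.2 CPM), and Fli1, an ETS factor (168.1, 160.5 and 162.8 against 233.9, 242.2 and 243.0 CPM). Gsr, glutathione reductase, had 324.4, 330.9 and 281.8 CPM against 401.4, 509.3 and 520.4 CPM, and Cyp4f18, a hydroxylase of leukotriene B4, 42.9, 43.2 and 44.1 CPM against 61.4, 74.3 and 79.7 CPM. Gtdc1 and Ccdc88c were also higher without overlap. In members free of other leukocytes' UMIs Dusp5 (log2 change 0.71), Dgat1 (0.81), Gsr (0.43) and Cyp4f18 (0.73) still did not overlap, and Fli1 (0.40) did.

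Immediate early genes, which answer stress and stimulation within minutes and also tissue digestion, were higher for 6 of 30 without overlap and lower for 2, where 7.86% of all genes were higher and 10.0% lower. Ier2 had 142.4, 182.8 and 167.7 CPM in normal lung and 194.5, 300.2 and 314.5 CPM in AML lung, and Junb 393.0, 420.8 and 495.8 CPM against 505.8, 745.6 and 721.4 CPM. Of 26 inflammatory genes 4 were higher and 1 lower without overlap, beside the same shares of all genes. Cxcl2, a neutrophil attractant, had 201.9, 240.2 and 226.0 CPM against 281.7, 363.8 and 371.0 CPM, a log2 change of 0.61 ± 0.14 that was 0.49 in members free of other leukocytes' UMIs. Ccl4 had 15.8, 24.0 and 21.6 CPM against 36.6, 31.3 and 87.3 CPM, and its groups overlapped in those members. Spp1, which encodes osteopontin, was lower, with 252.1, 255.0 and 216.7 CPM against 175.0, 110.2 and 68.6 CPM.

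Genes of the protein-folding machinery of the endoplasmic reticulum were lower for 7 of 23 without overlap and higher for none. Over all genes 10.0% were lower and 7.86% higher. Pdia4, a disulphide isomerase, had 114.7, 98.7 and 84.1 CPM in normal lung and 62.1, 42.4 and 48.8 CPM in AML lung (log2 change -0.96 ± 0.18). Every AML library lay below the lowest normal one. In the restricted set of members its log2 change was -0.78, again without overlap.

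Genes of other leukocytes were among those with the steepest differences, some of them through AML 3 and others not. All 10 nonclassical monocyte markers had a positive log2 change, 5 of them without overlap against 7.86% of all genes. Their median was 1.55 (0.99 without AML 3). Treml4, a receptor of those monocytes, had 15.2, 14.1 and 11.8 CPM in normal lung and 22.8, 58.6 and 60.2 CPM in AML lung. Cd300e had 5.90, 7.07 and 7.20 CPM against 14.6, 20.3 and 56.1 CPM. The median of the 10 neutrophil markers was 2.07, and 0.20 without AML 3. Granule precursor genes, made by immature neutrophils, were not carried by AML 3 alone. Of 10 listed, 4 passed the low count filter, with a median of 5.62 and 3 higher without overlap. Ngp and Camp had at most 3 UMIs in members of any normal library. They passed the filter through AML lung, so that median supports nothing. Among those that did not pass, Mpo had 0, 12 and 2 UMIs in normal and 0, 3 and 0 in AML members. Ms4a3 had 1, 3 and 2 against 0, 0 and 2, and Ltf 5, 2 and 2 against 2, 37 and 74. Ngp, a granule protein, had 3, 1 and 0 UMIs in members of normal lung and 8, 108 and 299 in those of AML lung, or 1.82, 33.2 and 30.2 CPM in AML 1 to 3. Prtn3, the granule protease proteinase 3, had 1.05, 0.821 and 0.900 CPM in normal lung and 5.46, 7.98 and 6.05 CPM in AML lung (log2 change 2.78 ± 0.30), with the same lowest adjusted p as Cav2 (0.303 by edgeR). Summed over the 10 listed genes, members of AML 2 held 36.05% of the level in the cells outside the alveolar macrophages. Those of AML 3 held 19.8%, AML 1 1.02% and normal lung 1.98% to 6.54%. The median of 35 interferon response genes was 1.01 with AML 3 and 0.27 without it. With all libraries 4 were higher without overlap. Without AML 3 there were 4 higher and 1 lower, counts that are not comparable because groups separate more easily with fewer libraries. Irf1 had 17.8, 21.8 and 20.3 CPM against 21.8, 49.7 and 78.1 CPM. In the members free of other leukocytes' UMIs 10 of the interferon genes were measured, with a median of 0.04 and 2 higher without overlap, and Irf1 had a log2 change of 1.60. B, T and NK cell markers had positive medians and none without overlap. Their part in the differences of the other lists was not tested beyond the restricted set of members.

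**Figure D4:**
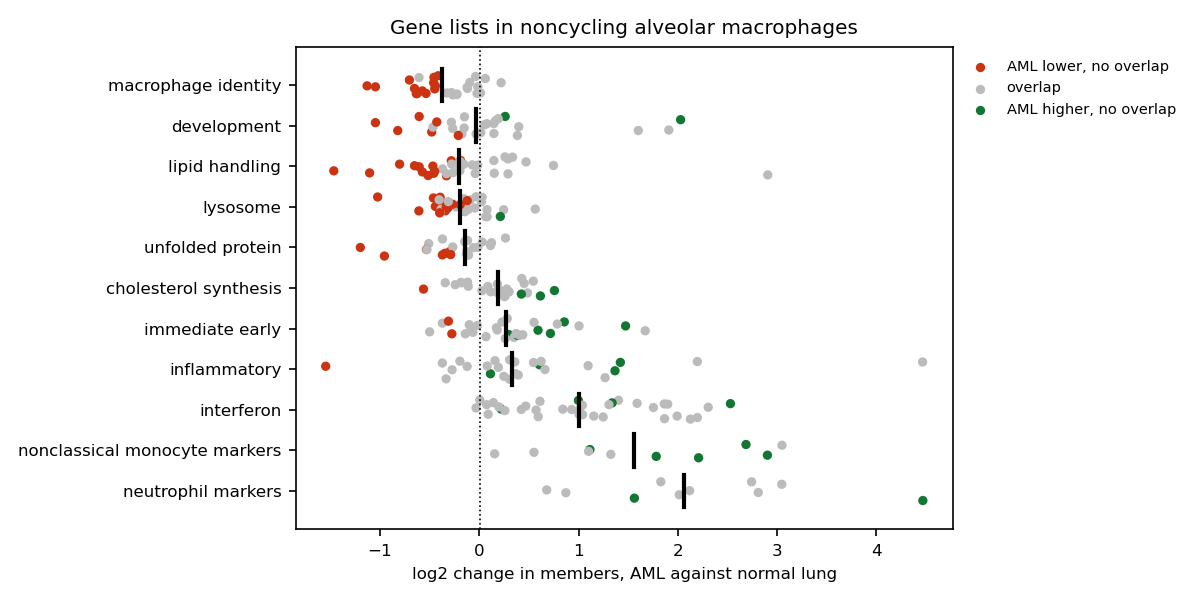
Log2 change, AML against normal lung, of each measured gene (points) in 11 lists, with the list median (black bar) and the median of all genes tested (dotted line). Identity, lipid and lysosome genes sit left of 0 with 13, 13 and 15 genes lower without overlap, and monocyte and neutrophil markers sit right of it. Of all genes 10.0% were lower without overlap.

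The remaining lists are given by their counts without overlap, where 7.86% of all genes were higher and 10.0% lower. From counts near those shares nothing is read. Of 40 genes of oxidative phosphorylation 8 were higher and 4 lower without overlap, of 27 glycolysis and hypoxia genes 2 and 5, of 28 proliferation genes 3 and 5, and of 30 phagocytic and scavenger genes 4 and 6. Antigen presentation genes of class II (13 measured) were higher for none and lower for 2. Of 25 suppressive and alternative activation genes 4 were higher and 4 lower. In the 19 eicosanoid genes 2 were higher and 1 lower, in the 23 chemokines and receptors 4 and 3, in the 21 iron and haem genes 5 and 0, and in the 18 class I genes 1 and 2.

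Tppp3, a tubulin-binding protein, had 128.6, 128.1 and 125.5 CPM in normal lung, 25.3 and 25.5 CPM in AML 1 and AML 2, and 100.4 CPM in AML 3, all below normal lung. It was the only gene that edgeR called without AML 3 (log2 change -2.33, adjusted p = 0.00129). Tppp3 was singled out after its values were seen.

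The AML effect in members was then set against that in nonclassical monocytes of the same libraries, by marker rule (487 to 986 cells per normal library and 2337 to 5193 per AML library). Nonclassical monocytes are known as patrolling blood monocytes that line the vessel wall. Whether the cells picked by the marker rule were of the same makeup in normal and AML lung was not tested. The test was edgeR's interaction of class and AML with the library as a block, over 13010 genes. The effect was lower in alveolar macrophages for 24 genes (0.184%) and higher for 11 (0.0846%). One of the 24 is Marco, a gene of the rule, from which nothing is read. For each of the 5 genes of lowest p among the 24 (Fpr2, Fpr1, St7, Acp5 and Ctsd) the monocytes of every AML library stood above those of every normal library. The count depended on which libraries were used: it was 0 without normal 1, without normal 2 or without AML 2, 7 without normal 3, 168 without AML 1 and 429 without AML 3.

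Fpr1, a receptor for formylated bacterial peptides, had 121.2, 97.1 and 94.5 CPM in members of normal lung and 106.7, 55.6 and 61.5 CPM in AML lung. In the monocytes it had 4.28, 4.24 and 6.28 CPM against 53.2, 24.0 and 29.2 CPM. The effects differed by -3.31 ± 0.22 on the log2 scale (edgeR adjusted p = 0.0102). Nr1h3 had 96.2, 51.8 and 50.3 CPM in monocytes of AML lung and 19.0 to 22.2 CPM in those of normal lung, against lower values in AML members (difference -2.27). Ctsd, the lysosomal protease cathepsin D, had 3538, 3421 and 3075 CPM in normal members and 2775, 2756 and 2323 CPM in AML members. In the monocytes it had 80.1 to 120.9 CPM in normal lung and 192.1 to 268.7 CPM in AML lung. In members free of other leukocytes' UMIs the log2 change of Ctsd was -0.03 and its groups overlapped. Of the 37 lysosomal genes only Ctsd was called, and the median difference over the list was -0.48.

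In the other direction, Dusp6, an ERK phosphatase, had 118.8 to 151.5 CPM in monocytes of normal lung and 36.9 to 56.6 CPM in those of AML lung, while in members it lay between 44.3 and 57.2 CPM in all libraries. Insig1 was 1.30 higher in its AML effect in members than in monocytes, and Fli1 0.86 higher. Fli1 stood at 443.9 to 494.8 CPM in normal and 365.3 to 387.3 CPM in AML monocytes, opposite in sign to the members.

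**Figure D5:**
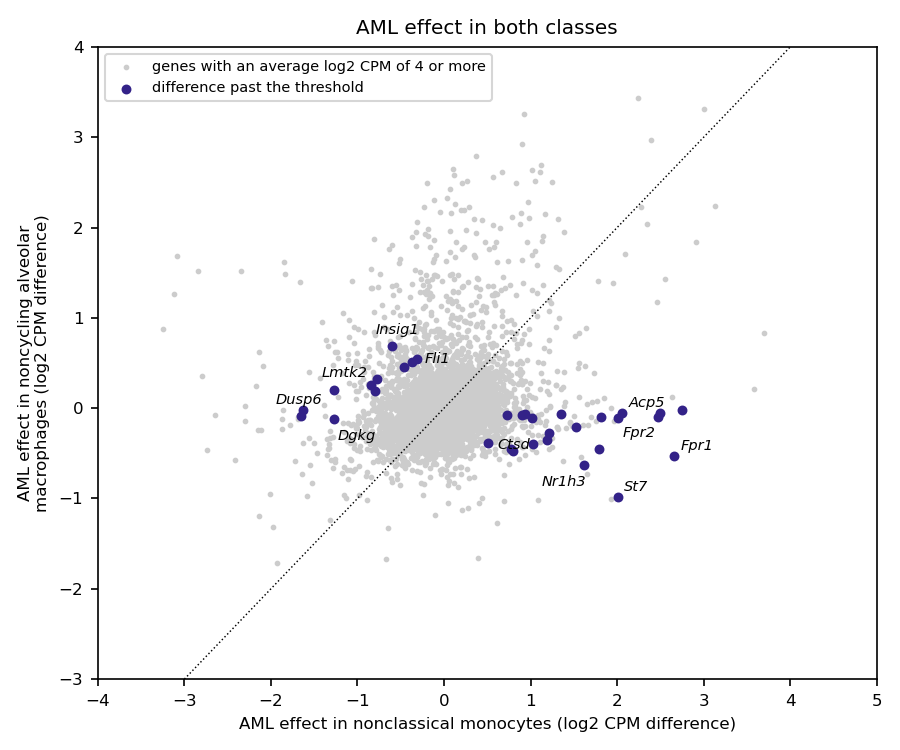
AML effect of each gene (difference of mean log2 CPM plus 0.5, AML minus normal) in nonclassical monocytes (x axis) and in noncycling alveolar macrophages (y axis); dark points passed the test of the difference and the dotted line marks equal effects. Genes of the rule, genes with a mean log2 CPM under 4 and genes beyond the axes are not drawn. Fpr1, Fpr2, St7 and Acp5 lie right of the line and Dusp6 and Dgkg left of it.

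Against C1q-positive macrophages, in the 5 libraries with 20 or more of those cells, no gene of 11224 passed (0%), with 951 (8.47%) at an unadjusted p under 0.05 (edgeR). Against all other kept cells, 54 genes had a higher AML effect in members (0.338%) and 383 a lower one (2.40%) of 15988. Of 37 lysosomal genes 19 were lower and none higher in that test. Over all genes the test called 0 without normal 1, without normal 2 or without AML 2, 2 without normal 3, 607 without AML 1 and 1532 without AML 3. Ctsa, for instance, had 248.4 to 292.8 CPM in normal and 180.0 to 213.0 CPM in AML members, while in the other cells it had 79.5 to 89.9 CPM in normal lung and 137.0 to 169.1 CPM in AML lung. The makeup of the other cells moved too, nonclassical monocytes among them as given above. The 4 erythroid genes called higher had their high levels in 1 AML library, as Hbb-bs with 323.0 CPM in members of AML 3.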

How the data were processed

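Single-cell 3′ libraries of CD45-selected lung cells (3 normal, 3 AML) were analysed from the UMI counts per gene and barcode deposited by the authors, which were made with Cell Ranger 7.0.0 on mm10, per the submitters' processing notes. Barcodes with 500 or more UMIs, 200 or more genes and under 10% mitochondrial UMIs were kept (71634 of 73095), and the member rule was applied to them. Library totals were 43913245 to 66513826 UMIs.

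Counts were summed over members per library and tested with edgeR 4.0.16 (TMM, filterByExpr, quasi-likelihood F test, Benjamini-Hochberg over all genes, threshold 0.05); DESeq2 1.42.0 was an alternative. CPM values of single genes are TMM-scaled; CPM sums of marker lists are plain. Class differences used a class by AML interaction with library as a block. On simulated counts for the comparison within members (11899 genes, 200 changed) edgeR recovered 59.8% of 2-fold and 93.0% of 4-fold changes. The simulation drew all libraries from the same mean levels. It held no library set apart as AML 3 was, so these percentages need not hold for the real counts. Shares and medians were compared by exact permutation over 20 arrangements. Scrublet (scanpy 1.11.5) predicted doublets, which stayed in except in 1 alternative. In 2 libraries its automatic threshold marked almost no cells or none, and the median threshold of the others, 0.207, was used. Thinning drew 1000 UMIs per cell without replacement, and the rule was applied anew to the thinned counts. Nonclassical monocytes had 3 or more of 6 genes (Ace, Treml4, Cd300e, Adgre4, Eno3, Spn) and C1q-positive macrophages 2 or more C1q genes; libraries with fewer than 20 cells of a class were left out of its fit.

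The members and gene lists were chosen with earlier results of these data known. Named genes were, at a mean log2 CPM of 4 or more: up to 10 per direction past the threshold, filled by the lowest p among genes whose groups do not overlap, here and in the fit with a replicate block; 5 per direction from each interaction; and, at any level, up to 4 per list by lowest p, the fixed markers, the 10 highest means and the genes of the rule. Unnamed gene models, ribosomal, mitochondrial, antigen receptor and sex-linked genes were left out. Same-numbered libraries of the groups had deviations from their group means that correlated at 0.551, 0.0197 and 0.615. The other pairs of a normal and an AML library had -0.623 to 0.306. The labels do not say whether the numbers pair the libraries, and they were not taken to pair them.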

Additional observations from a re-analysis of the deposited data

Results flagged for a closer look

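The AML effect in noncycling alveolar macrophages differed from that in nonclassical monocytes, by edgeR's interaction test, for the 10 genes named by lowest p. On the log2 scale the effect in members minus that in monocytes was -3.31 for Fpr1, -3.01 for St7, -2.15 for Fpr2, -2.13 for Acp5 and -1.55 for Ctsd. It was 1.57 for Dusp6, 1.30 for Insig1, 1.15 for Dgkg, 1.13 for Lmtk2 and 0.86 for Fli1. St7 in members had 540.9, 653.5 and 844.2 CPM in normal lung and 468.4, 137.5 and 591.0 CPM in AML lung. In the monocytes it had 29.5, 38.5 and 33.7 CPM against 174.8, 70.9 and 207.0 CPM.

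The effect in members minus that in all other kept cells was -1.73 for Sh2d1b1, -1.48 for Tcf7l2, -1.36 for Cndp2, -1.31 for Ctsa and -1.24 for Lipa. It was 1.21 for Pgap1 and 1.20 for Tcp11l2. Pgap1 had 44.2 to 52.3 CPM in members of normal lung and 44.4 to 57.7 CPM in those of AML lung, and in the other cells 149.4 to 162.7 CPM against 65.0 to 78.4 CPM.

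The haemoglobin genes had the differences of greatest size, 7.82 for Hba-a2, 7.13 for Hbb-bt and 6.43 for Hbb-bs. Hbb-bs had 777.8 and 318.1 CPM in the other cells of normal 2 and normal 3, 384.0 CPM in those of AML 3 and at most 0.107 CPM in those of the remaining libraries. In members it had 323.0 CPM in AML 3 and at most 4.99 CPM elsewhere, so these 3 values rest on 1 AML library and 2 normal libraries.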

How the results depend on the processing

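The mean share of members was lower in AML lung under all 13 alternatives (differences of -15.4 to -9.70 percentage points). The groups overlapped, with an exact permutation p of 0.2, with 3 or more identity genes, with 1000 or more UMIs per cell and after thinning. With 3 or more identity genes normal 3 had 17.3% and AML 3 17.6%. Within members edgeR called no gene under the other normalization, filters and identity thresholds that had been planned. DESeq2 called 170 genes, and the restricted set free of other leukocytes' UMIs, an alternative added after seeing the data, gave 1 (Fyb, log2 change 3.69). Leaving out 1 library gave 0 to 4, with 4 without AML 1 (Tnip3, Ngp, Ltf and Treml4) and 1 without AML 3. The replicate block gave 102 calls and DESeq2 with replicate block, added after seeing the data, 302. Libraries numbered 1 and 3 correlated with their namesakes at 0.551 and 0.615, the highest of all pairs. Those numbered 2 had 0.0197, and normal 2 correlated best with AML 1, at 0.306. Whether the numbers pair the libraries is thus undecided, and the calls with a replicate block are not used above.

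Differences from nonclassical monocytes numbered 246 with no low count filter and 0 to 429 on leaving out 1 library. Against C1q-positive macrophages they numbered 271 with no filter and 0 to 2 on leaving out 1 library. Against all other cells they numbered 0 to 1532 on leaving out 1 library; the count was 0 without normal 1, normal 2 or AML 2, 2 without normal 3 and 1532 without AML 3. The cause was not tested.

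The sign turned for 4 genes, 2 of them near 0 as reported. Ear2 (0.01 as reported) had -0.032 with no low count filter, -0.027 with the replicate block, -0.011 by DESeq2 with the block, and -0.14 to 0.22 on leaving out 1 library. Fabp4 (-0.01) had 0.00025 by DESeq2, 0.0029 with 5 or more identity genes, 0.046 with 7 or more, 0.079 with equal cell numbers, 0.064 after thinning and 0.15 in the restricted set, and -0.24 to 0.12 on leaving out 1 library. In the restricted set Cidec (-0.45 as reported) had 0.11 and Ccdc88c (0.45) -0.023. The cycling share turned from -2.69 to 0.33 percentage points after thinning. The difference in median mitochondrial percent was -0.47 to 0.0175 on leaving out 1 library, the latter without AML 3. Depth limits the thinned and restricted sets, which had 8054 and 6553 genes tested.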
